A study of Solanum lycopersicum and Solanum pimpinellifolium with 9 samples.

Results

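Tonoplast intrinsic proteins (TIPs), the aquaporins of the vacuolar membrane, were followed through 9 cDNA libraries of tomato tissues. The family was taken as 6 gene IDs of the deposited table, listed by ID with earlier results of these data known: Solyc06g074820, Solyc06g075650, Solyc10g083880, Solyc12g044330, Solyc03g120470 and Solyc06g060760. Below, the family means these 6 genes only, and any TIP gene outside the list was not looked at. All 6 were found among the table's 34727 gene IDs, and each was listed above 0 in at least 4 libraries. From LA0722, an accession of the wild relative Solanum pimpinellifolium, there was 1 library of ripe (red) fruit and 1 of fully expanded leaf, 2 to 4 weeks old. From the cultivated tomato, Solanum lycopersicum cultivar MoneyMaker, there were fruits of 3 stages (mature green; breaker, when colour begins to turn; and red ripe), open flowers without sepals, below-ground root, upper stem and fully expanded leaf, 2 to 3 weeks old. No treatment is named for any group, and all plants grew in greenhouse pots with 16 h of light and 8 h of dark. Each group holds 1 library, and whether it came from 1 plant or several is not given in the sources used here. No test between tissues or species was therefore possible, and every interval below covers counting error only.

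In an expanded plant cell the central vacuole fills most of the volume. TIPs are channels in its membrane that let water, and in some members small solutes such as urea, ammonia or hydrogen peroxide, pass between vacuole and cytosol. In plants generally they are known for high levels in growing and conducting tissues, where cells enlarge or water moves quickly between cells.

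Levels are the authors' RPKM, reads corrected for the length of each gene and for library depth. The values imply library totals between 211201 reads in LA0722 ripe fruit and 380306 in MoneyMaker leaf. Reads were recovered from the steps of each gene's values, since a value is a whole multiple of what 1 read is worth. For a gene model of 753 nt, 1 read was worth 6.29 RPKM in LA0722 ripe fruit and 3.49 RPKM in MoneyMaker leaf. Values under 25 RPKM thus rest on at most a few reads for 5 of the 6 genes. Where a gene was listed at 0, the limit used is 3 reads, between 10.6 and 19.0 RPKM. Comparisons with flower or MoneyMaker leaf lean on the scaling of the libraries. Upper-quartile scaling multiplies flower by 2.15 and MoneyMaker leaf by 1.23, and median-ratio size factors multiply them by 2.51 and 1.48, while root and stem are multiplied by 0.701 to 0.809. Ratios below are of RPKM as deposited unless a scaling is named. In whole-tissue RNA, fewer cells of a type and less RNA per cell cannot be told apart.

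The recovered gene models were alike in length for 5 of the genes. They came to 747 nt for Solyc10g083880 and Solyc12g044330, 753 nt for Solyc06g074820 and Solyc06g060760, and 762 nt for Solyc06g075650, which is 249 to 254 codons. Solyc03g120470 stood apart with 3795 nt, a length that only 1.75% of the genes above 0 reached. Its RPKM is a read number divided by a model about 5 times as long as that of its relatives. Its level per length may therefore not compare with theirs, but its own ratios between libraries do not depend on that length. Whether so long a model also takes in reads of other genes was not tested. Its ratios, shares and correlations below hold for the model as listed. By their IDs, 3 of the 6 genes lie on chromosome 6, and 81 listed IDs separate Solyc06g074820 from Solyc06g075650. How the authors treated reads that match several family members is not given in the sources used here, so reads of the most alike members may be split between them.

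The family was abundant in root and stem, intermediate in leaf, flower and LA0722 ripe fruit, and close to the detection limit in ripe MoneyMaker fruit. Summed over the 6 genes, RPKM came to 1128 in LA0722 ripe fruit and 589.0 in LA0722 leaf. In MoneyMaker the sum was 123.2 in mature green, 71.74 at breaker and 16.68 at the ripe stage, 616.2 in flower, 3468 in root, 3409 in stem and 1043 in leaf. Root and stem thus stood far above every fruit library of the same cultivar. At 25 RPKM or more stood 6 of the 6 genes in root, where 20.6% of all listed IDs did, and 0 of 6 in ripe MoneyMaker fruit, where 16.7% of all IDs did. The sum took 0.26% of all RPKM in root as in stem and 0.00106% in ripe MoneyMaker fruit.

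The near-equal sums of root and stem depend on how length enters. Counted as reads scaled to the library (RPM), which ignore length, the family had 4101 RPM in root (95% Poisson interval 3888 to 4322) and 6562 RPM in stem (6292 to 6842), because Solyc03g120470 alone gave 76.0% of the family's reads in stem and 45.2% in root. Without that gene the summed RPKM was 2979 in root and 2094 in stem. With upper-quartile scaling of the libraries, root at 2432 came below stem at 2654. The placing of root, stem or neither in the lead is therefore not fixed by these data, whereas the low place of MoneyMaker fruit was common to RPKM and reads, with 118 RPM in mature green, 83.9 RPM in breaker and 33.3 RPM in ripe fruit.

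**Figure D1:**
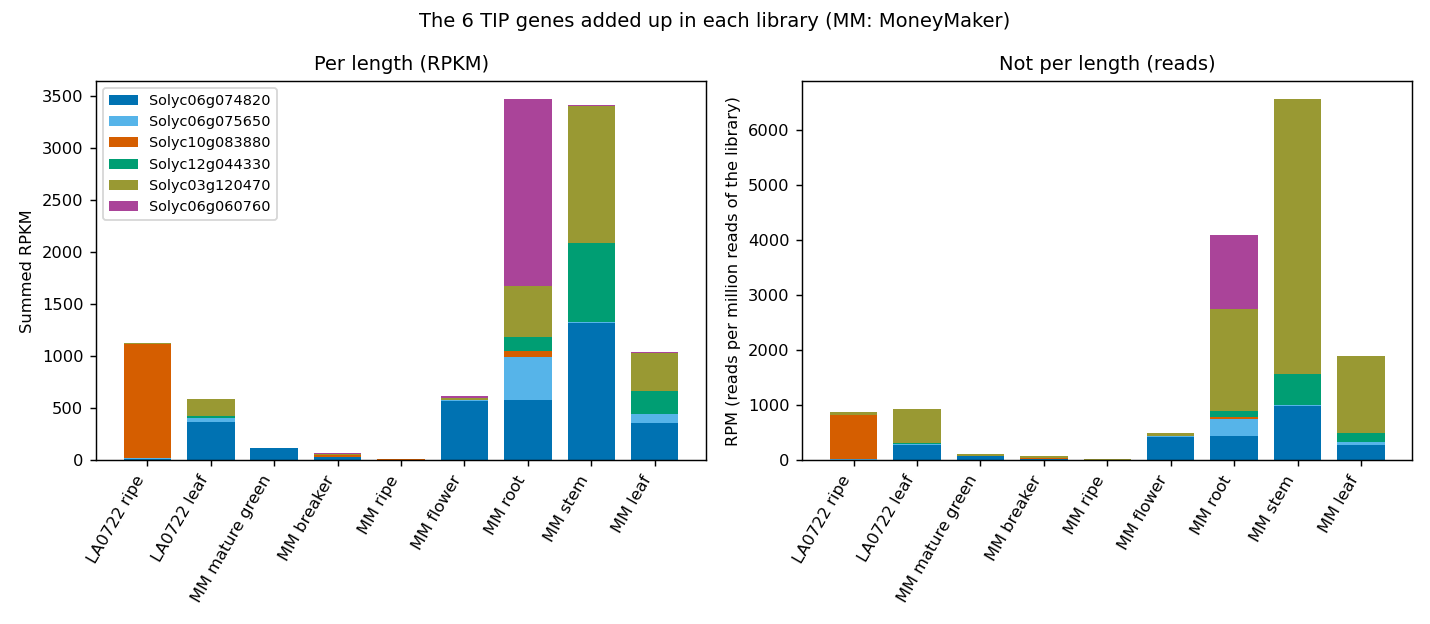
Sum of the 6 TIP genes in each library, on the left as RPKM and on the right as reads scaled to the library (RPM), stacked by gene (bars start at 0; 1 library each; MM, MoneyMaker). Root and stem are nearly level as RPKM (3468 and 3409), stem leads as reads, and LA0722 ripe fruit consists almost wholly of Solyc10g083880.

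The composition of the family changed from tissue to tissue. In root Solyc06g060760 made up 51.8% of the summed RPKM. In stem, Solyc06g074820 and Solyc03g120470 held 38.6% each and Solyc12g044330 held 22.1%. Flower was carried by a single gene, Solyc06g074820, with 92.8%. The same gene made 93.2% of the small sum in mature green fruit. In LA0722 ripe fruit, by contrast, Solyc10g083880 made 96.7% and Solyc06g074820 made 1.12%.

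Solyc06g074820 reached 25 RPKM or more in 7 of the 9 libraries and was listed above 0 in all of them. It stood at 12.6 RPKM (2 reads) in LA0722 ripe fruit, 366 RPKM (83 reads) in LA0722 leaf, and 115, 30.9 and 4.91 RPKM (30, 5 and 1 reads) in mature green, breaker and ripe MoneyMaker fruit. In the other MoneyMaker tissues it stood at 572 RPKM in flower, 582 in root, 1316 in stem and 363 in leaf, on 92, 148, 334 and 104 reads. Stem was 2.26-fold above root (interval 1.86 to 2.77), but flower led instead with upper-quartile scaling, at 1228 against 1024 scaled RPKM in stem, and with median-ratio size factors, at 1436 against 1065. As deposited, root and flower could not be separated by counting error (ratio 1.02, 0.779 to 1.33), nor could the 2 leaves (LA0722 over MoneyMaker 1.01, 0.747 to 1.36). With median-ratio size factors these ratios were 0.308 and 0.618. Leaf of MoneyMaker was 3.16-fold above mature green fruit (2.09 to 4.92), and 5.23-fold and 6.95-fold under upper-quartile and median-ratio scaling. In mature green and breaker fruit it was the only one of the 6 genes at 25 RPKM or more. It was so in flower too as deposited, although Solyc06g060760 came to 40.0 and 46.8 and Solyc03g120470 to 29.1 and 34.1 scaled RPKM there under those scalings.

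Solyc03g120470 was also above 0 in every library and stood higher in vegetative tissues than in flower and fruit. It stood at 12.5 RPKM (10 reads) in LA0722 ripe fruit and 161 RPKM (184 reads) in LA0722 leaf. In MoneyMaker it stood at 8.36, 9.82 and 6.82 RPKM (11, 8 and 7 reads) in mature green, breaker and ripe fruit and at 13.6 RPKM (11 reads) in flower. Root had 489 RPKM (627 reads), stem 1315 RPKM (1682 reads) and MoneyMaker leaf 365 RPKM (527 reads). The lowest vegetative library, LA0722 leaf, was 11.9-fold above flower (6.49 to 24.2), and 5.77-fold and 4.29-fold under upper-quartile and median-ratio scaling. As deposited, neighbours among flower and the 4 fruit libraries differed by 1.09-fold to 1.27-fold, with intervals that all held 1. Under the same scalings flower stood 2.2-fold and 3.0-fold above LA0722 ripe fruit, the next library. Root was 1.34-fold above MoneyMaker leaf as deposited (1.19 to 1.51), but 0.761-fold and 0.688-fold under them. By reads, which are not corrected for its long model, this was the leading TIP gene of root, stem and both leaves. It also led by reads in breaker and ripe MoneyMaker fruit, on 8 and 7 reads. Per length it held 14.1% of the family's RPKM in root, against 51.8% for Solyc06g060760.

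Solyc12g044330 followed the same tissues without a detectable signal in fruit. It was listed at 0 in LA0722 ripe fruit and in mature green, breaker and ripe MoneyMaker fruit, where 3 reads allow up to 19.0, 11.6, 18.7 and 14.8 RPKM. It stood at 22.2 RPKM (5 reads) in LA0722 leaf and, in MoneyMaker, at 6.26 RPKM (1 read) in flower, 135 (34 reads) in root, 755 (190 reads) in stem and 225 (64 reads) in leaf. Stem was 3.35-fold above leaf (2.51 to 4.52), and 2.11-fold and 1.83-fold under upper-quartile and median-ratio scaling. Leaf was 1.67-fold above root (1.09 to 2.62), and 2.94-fold and 3.26-fold under them. The profiles of Solyc12g044330 and Solyc03g120470 over the 9 libraries were the most alike of the 15 pairs of TIP genes, with a Pearson correlation of log2(RPKM + 5) of 0.97. Solyc06g074820 correlated with them at 0.78 and 0.77. These correlations describe 9 points that share library, depth and scaling.

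Solyc06g060760 was read almost wholly in root, with 457 of its 467 reads. It was listed at 0 in both LA0722 libraries and in mature green and ripe MoneyMaker fruit. Breaker fruit had 12.4 RPKM (2 reads), with 18.6 (3 reads) in flower, 7.88 (2 reads) in stem and 10.5 (3 reads) in MoneyMaker leaf, against which root reached 1796 RPKM (457 reads). It ranked 74th among the 17598 genes above 0 in root. Root was 96.3-fold above flower, the next library (32.8 to 469), and 31.5-fold and 29.2-fold under upper-quartile and median-ratio scaling. The remaining libraries could not be ordered by their 0 to 3 reads. No LA0722 root was among the libraries, so its zeros in that species cover fruit and leaf only.

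Solyc06g075650 was also highest in root, with a second place in leaf. It stood at 12.4 RPKM (2 reads) in LA0722 ripe fruit and 39.2 (9 reads) in LA0722 leaf. In MoneyMaker it was listed at 0 in mature green and ripe fruit and stood at 6.12 (1 read) in breaker fruit, 6.14 (1 read) in flower, 412 (106 reads) in root, 15.6 (4 reads) in stem and 79.4 (23 reads) in leaf. Root was 5.19-fold above MoneyMaker leaf (3.28 to 8.53). Unlike the stem genes, it had less in stem than in leaf, 5.10-fold (1.74 to 20.3). As deposited, neighbours from MoneyMaker leaf downward had intervals that held 1. MoneyMaker leaf was 2.02-fold above LA0722 leaf as deposited, and 2.39-fold and 3.3-fold under upper-quartile and median-ratio scaling.

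Solyc10g083880 had a pattern found in no other member. It stood at 1090 RPKM (172 reads) in LA0722 ripe fruit, rank 137 of the 12234 genes above 0 there. It was listed at 0 in LA0722 leaf and in mature green fruit, flower, stem and leaf of MoneyMaker, and had 12.5 RPKM (2 reads) in breaker fruit, 4.95 (1 read) in ripe MoneyMaker fruit and 55.5 (14 reads) in root. The wild ripe fruit was thus 19.7-fold above root, the next library (11.4 to 36.7), and 29.7-fold with upper-quartile scaling. Root in turn was 4.44-fold above breaker fruit (1.02 to 40.3), and 3.49-fold and 4.23-fold under upper-quartile and median-ratio scaling. With 2 breaker reads and an interval that only just excluded 1 as deposited, this order is not firm. Its correlations with the other 5 genes were the lowest of the set, between -0.47 and 0.18.

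**Figure D2:**
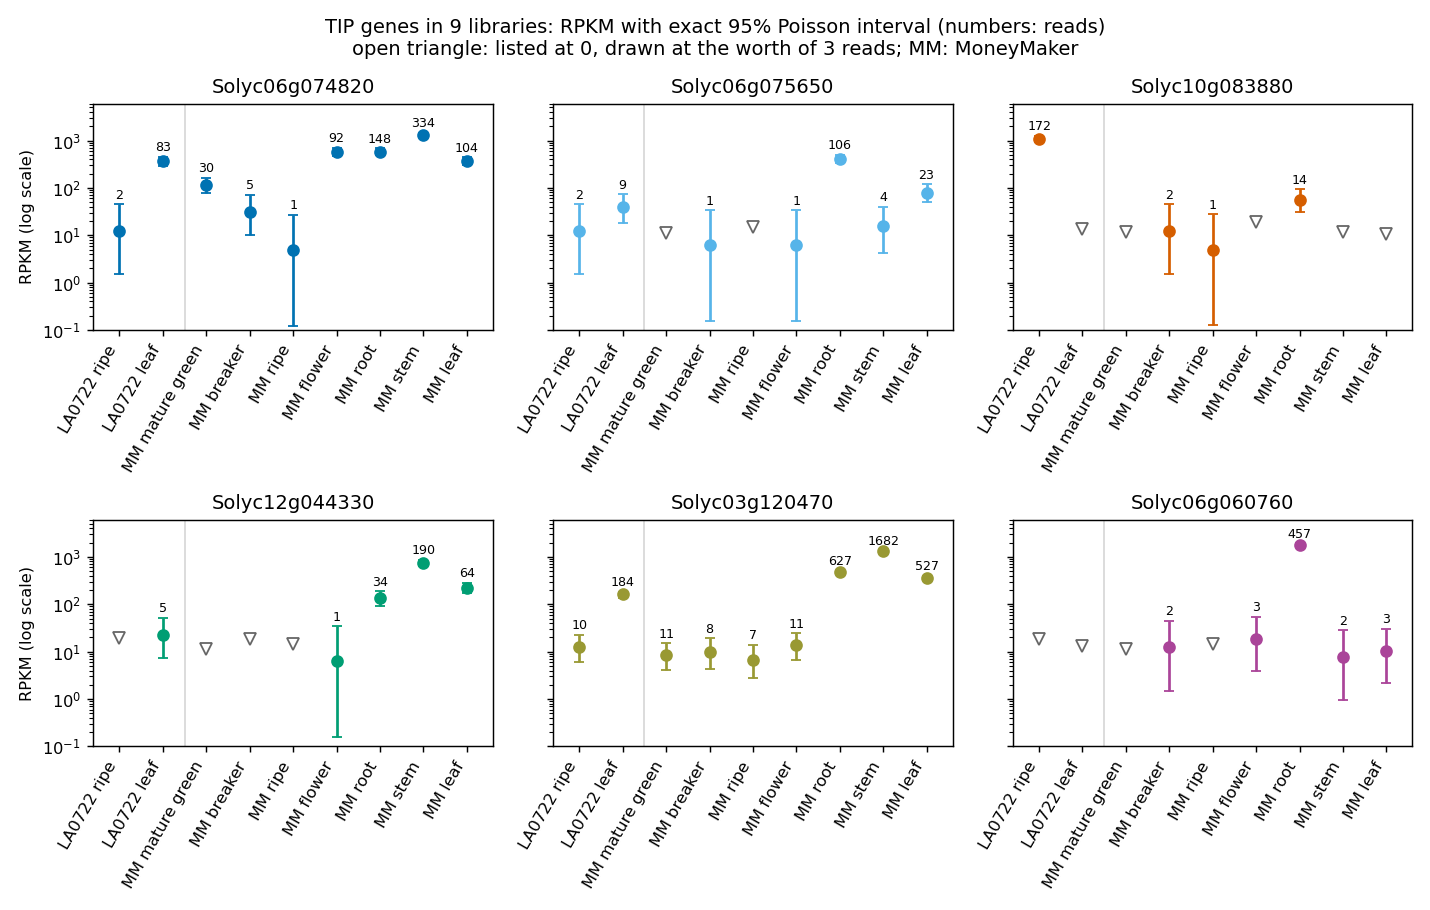
RPKM (log axis) of each TIP gene in the 9 libraries, with exact 95% Poisson intervals from the recovered reads, whose number stands above each point; open triangles mark genes listed at 0, drawn at the worth of 3 reads (MM, MoneyMaker). Solyc06g060760 peaks in root at 1796 RPKM, 3 genes peak in stem (1 of them, Solyc06g074820, in flower under 2 other scalings), and Solyc10g083880 peaks in LA0722 ripe fruit at 1090 RPKM.

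Across the MoneyMaker libraries, 3 of the 6 genes were highest in root and 3 in stem by RPKM as deposited, while Solyc06g074820 was highest in flower under upper-quartile scaling and median-ratio size factors. Among the 12519 genes with 25 RPKM or more in some MoneyMaker library, 20.4% were highest in root and 13.9% in stem. A gene was called predominant when its highest MoneyMaker library exceeded the next by 2 log2 units (4-fold) on log2(RPKM + 5), with at least 25 RPKM. Because of the added 5 RPKM, differences of low genes come out smaller than their folds. The rule called 2 of the 6, Solyc06g060760 with a difference of 6.25 and Solyc06g075650 with 2.30, both in root, against a background of 16.3% of genes. Under upper-quartile scaling and under median-ratio size factors the call of Solyc06g075650 was lost, with root 2.95-fold and 2.66-fold above leaf.

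Between libraries a gene was called higher or lower by the same rule of size. Backgrounds are shares of the genes compared, which had 25 RPKM or more in the higher library. Of the 6 TIP genes, 6 were compared in root against stem. In stem against leaf, in ripe fruit against leaf of each species and in leaf between species, 4 were compared. In each comparison of fruit stages and in ripe fruit between species it was 1. The others could not be called. In root against stem the family split. In root 3 of the 6 were higher than in stem, where the background was 12.8% of 8810 genes, and 1 was lower, with a background of 8.57%. Higher in root were Solyc06g060760, 228-fold (62.7 to 1887) and the 32nd largest difference toward root, Solyc06g075650, 26.4-fold (10 to 98.8), and Solyc10g083880, at least 4.65-fold above the stem limit of 3 reads. The call of Solyc10g083880 was lost with a pseudocount of 20 RPKM and with a minimum of 100 RPKM. Lower in root was Solyc12g044330, with 135 RPKM in root against 755 in stem, 5.6-fold (3.87 to 8.33). Solyc06g074820 and Solyc03g120470 had log2 differences of -1.17 and -1.42 and were not called.

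In stem against leaf of MoneyMaker, the 3 stem genes moved by a similar amount. Stem over leaf was 3.62-fold for Solyc06g074820 (2.90 to 4.56), 3.60-fold for Solyc03g120470 (3.26 to 3.98) and 3.35-fold for Solyc12g044330 (2.51 to 4.52). None of the 3 reached the rule, so that 0 of the 4 compared TIP genes were called higher, with a background of 18.4%. The median of all 7606 genes compared was itself 0.88 log2 units in favour of stem, against 1.84, 1.83 and 1.72 for these genes. With median-ratio size factors that median was -0.17, the 3 genes stood at 0.98, 0.97 and 0.86, and the background of higher genes was 8.77%. With upper-quartile scaling the median was 0.09, the genes stood at 1.18, 1.17 and 1.07, and the background was 10.2%. Solyc06g075650 was the 1 gene called lower (background 8.55%), with 15.6 RPKM (4 reads) in stem against 79.4 (23 reads) in leaf. The call was lost with a pseudocount of 20 RPKM and with a minimum of 100 RPKM. With median-ratio and upper-quartile scaling its log2 difference was -2.8 and -2.59, and the background of lower genes was 16.3% and 14.2%.

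In ripening fruit the family's reads were few. RPM summed over the 6 genes had intervals of 84.8 to 160 in mature green, 49.7 to 133 in breaker and 15.2 to 63.2 in ripe fruit, so that ripe lay below mature green, and breaker overlapped both. Only 1 of the 6 genes, the same each time, was compared between stages. In breaker against mature green fruit it passed the rule in neither direction, with backgrounds of 8.51% higher and 11.5% lower among 8098 genes. In ripe against breaker fruit it again did not pass, with backgrounds of 7.07% and 8.53% among 7255. Both steps use the same breaker library. Over the whole span, ripe against mature green, it was lower (backgrounds 15.2% lower and 8.51% higher). That gene was Solyc06g074820, whose log2 difference was -1.74 at the first step, -1.86 at the second and -3.60 over both. Breaker had 3.71-fold less of it than mature green (1.43 to 12.3) and ripe fruit 23.4-fold less than mature green (3.89 to 954), while the second step, with 1 read in ripe and 5 in breaker fruit, had an interval of 0.705 to 298. It was the only member with 25 RPKM in any of these libraries. Solyc03g120470 showed no difference beyond counting error, with ripe over mature green at 0.816-fold (0.268 to 2.31), and the other 4 genes had 0 to 2 reads at each stage, too few to show a change.

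In ripe fruit against leaf of MoneyMaker 4 of the 6 genes, the 4 that were compared, were lower in ripe fruit (background 18.6% of 7616 genes). None was higher (26.4%). The median log2 difference over the 4 compared TIP genes was -5.09 (-4.52 over all 6), whereas the median over all compared genes was 0.98. With median-ratio size factors the median of all compared genes turned to -0.42, with backgrounds of 28.9% lower and 13.1% higher, and the 4 called genes stood at -4.62 to -6.08. Ripe fruit had 74.0-fold less Solyc06g074820 than leaf (13.0 to 2949), 53.5-fold less Solyc03g120470 (25.8 to 134), at least 15.2-fold less Solyc12g044330 and at least 5.45-fold less Solyc06g075650, the last pair against the limit of 3 reads. The call of Solyc06g075650 was lost with a minimum of 100 RPKM. Solyc06g060760, with 0 reads in ripe fruit and 3 in leaf, and Solyc10g083880, with 1 and 0, lay under the minimum level.

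In LA0722 the same pair of tissues gave 2 genes lower in ripe fruit (background 19.4% of 7551) and 1 higher (19.3%). Lower were Solyc06g074820, 29.1-fold (7.81 to 245), and Solyc03g120470, 12.9-fold (6.87 to 27.4). Higher was Solyc10g083880, with 1090 RPKM in ripe fruit and 0 in leaf, at least 81.7-fold and the 44th largest difference toward ripe fruit. The median over the 4 compared TIP genes was -2.3 (-1.90 over all 6), against 0.02 over all compared genes. Solyc06g075650 did not pass, with 12.4 RPKM in ripe fruit against 39.2 in leaf (log2 difference -1.34). Whether the tissue differences differ between the species was not tested, as each rests on 1 library per tissue.

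**Figure D3:**
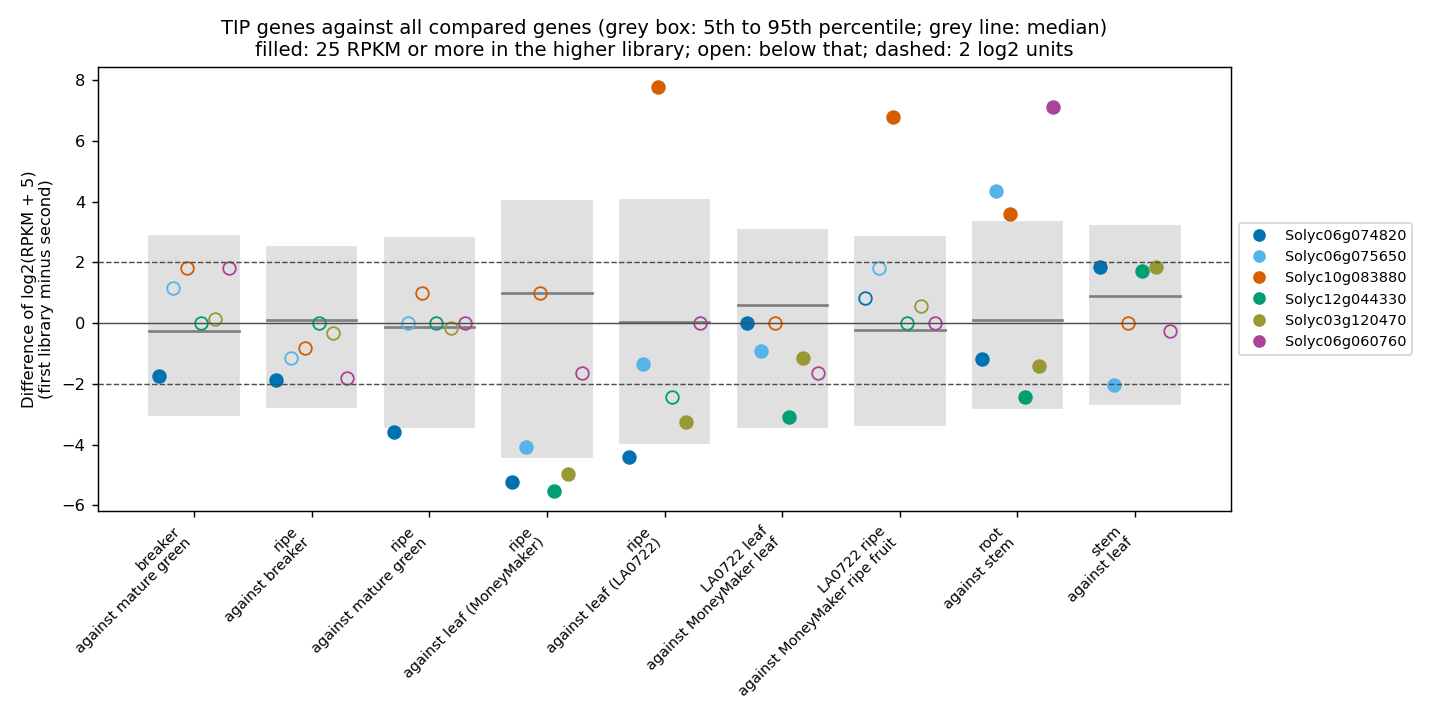
Difference of log2(RPKM + 5), first library minus second, for each TIP gene in 9 comparisons, over the 5th to 95th percentile (grey box) and the median (grey line) of all genes compared. Filled points had 25 RPKM or more in the higher library and dashed lines mark 2 log2 units; 4 genes lie below the lower line in ripe against leaf of MoneyMaker, and Solyc10g083880 lies at 7.78 and 6.78 in the comparisons of LA0722 ripe fruit with LA0722 leaf and with MoneyMaker ripe fruit.

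In leaf, 1 TIP gene was lower in the wild LA0722 than in MoneyMaker by the rule of size. The background was 15.2% of 7015 genes for lower calls, and 0 of the 4 compared TIP genes were called higher (17.1%). The called gene was Solyc12g044330, with 22.2 RPKM in LA0722 leaf against 225 in MoneyMaker leaf, 10.1-fold (4.12 to 32.2). Solyc03g120470 had 161 RPKM against 365, 2.27-fold less (1.91 to 2.69), a difference beyond counting error but inside the rule. Solyc06g075650 had 39.2 RPKM against 79.4 (log2 difference -0.93), with an interval of the fold that held 1 as deposited (0.901 to 4.96). Its log2 difference was -1.16 under upper-quartile and -1.59 under median-ratio scaling. Solyc06g074820 had 366 RPKM against 363 as deposited, and 333 against 538 scaled RPKM with median-ratio size factors. Solyc10g083880 was listed at 0 in both leaves, and Solyc06g060760 had 0 reads in LA0722 and 3 in MoneyMaker. The median log2 difference of all compared genes was 0.60 as deposited and 0.26 after upper-quartile scaling, but -0.41 with median-ratio size factors, so its direction depends on the scaling. Under median-ratio size factors Solyc12g044330 stood at -3.75, against -3.08 as deposited, and the background of lower genes was 23.4%.

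Between the ripe fruit libraries of LA0722 and MoneyMaker 1 TIP gene passed the rule of size. Of the 6, only 1 was compared, and it was higher in LA0722 (backgrounds 9.09% higher and 14.1% lower of 7088). Solyc10g083880 stood at 1090 RPKM (172 reads) in LA0722 against 4.95 RPKM (1 read) in MoneyMaker, 220-fold (39.0 to 8750), the 8th largest increase of all genes compared. The other 5 stayed below 25 RPKM in both libraries, on 0 to 10 reads each, too few to tell whether they differed. Of these, Solyc03g120470 had 12.5 RPKM in LA0722 against 6.82 in MoneyMaker, 1.83-fold (0.629 to 5.66), and Solyc06g074820 had 12.6 against 4.91, on 2 reads and 1. The high level of the family in wild ripe fruit, 1128 RPKM against 16.68 in MoneyMaker, thus rested on 1 gene in 1 library. No second LA0722 fruit library was there to repeat it.

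**Figure D4:**
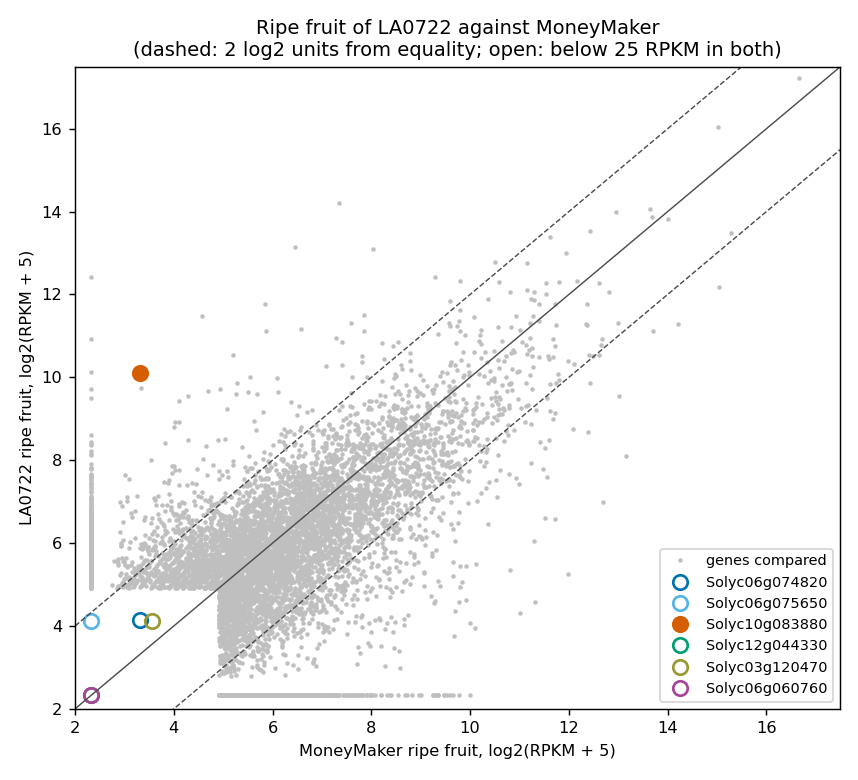
Every gene with 25 RPKM or more in ripe fruit of LA0722 or MoneyMaker (grey), as log2(RPKM + 5) in LA0722 against MoneyMaker, with the 6 TIP genes in colour (open where below 25 RPKM in both; dashed lines, 2 log2 units from equality). Solyc10g083880 lies 6.78 log2 units above equality, and the other 5 genes lie near the lower left corner, Solyc12g044330 and Solyc06g060760 at 0 in both.

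For each TIP gene the table was searched for the genes with the most similar profile, by the Pearson correlation of log2(RPKM + 5) over the 9 libraries, among genes with 25 RPKM or more in at least 1 library. The closest to Solyc03g120470 was Solyc09g083290 (0.993), with 60.8 RPKM in LA0722 leaf, 141 in root, 855 in stem, 207 in MoneyMaker leaf and 0 in flower and all fruit. It was also the second closest to Solyc12g044330 (0.979), after Solyc04g005800. Solyc10g083880 was followed most closely by Solyc01g097830 (0.984), which had 182 RPKM in LA0722 ripe fruit against 3.55 in MoneyMaker ripe fruit, 17.1 in root and 0 in both leaves. The closest to Solyc06g074820 was Solyc05g008060 (0.984), to Solyc06g060760 Solyc06g074990 (0.972) and to Solyc06g075650 Solyc02g080220 (0.956). The table gives no names for these IDs.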

How the data were processed

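The authors deposited RPKM values, with 2 decimals, for 9 libraries sequenced by 454 pyrosequencing. HTSeq is named per the submitters' processing notes; for aligner, build, annotation, filters and the reference used for LA0722 reads, nothing is given in the sources used here. Column names were compared with the sample labels. The column for mature fruit was taken as mature green, and MoneyMaker ripe fruit was matched by elimination to a berry column with the unexplained number 10.

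Reads, totals and lengths were recovered from the RPKM steps (values within 0.05 of whole reads, lengths as multiples of 3, the smallest read numbers that fit), so true reads could be a multiple. The recovery was also run on simulated data built on the same assumptions, which cannot check those assumptions for the deposited values. Recovered reads summed to 95.8% to 99.9% of the implied totals. Read intervals are exact Poisson, and ratios use the exact conditional binomial (Clopper-Pearson) interval, both at 95%. PCR copies are not independent molecules. Differences used a pseudocount of 5 RPKM, a minimum of 25 RPKM and a rule of 2 log2 units, over all genes.

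Of 41476 reference genes 0 carried a table ID, so TIP identity rests on the list of IDs. Subfamily names, tissue markers and lists of other aquaporins and vacuolar pumps were not analysed here, and no sequence is shown. Genes named are the 6 members and, per member, the 2 with the most similar profile. Members and lists were chosen with earlier results of these data known. Alternatives were other pseudocounts, minimum levels, rules and scalings. Python 3.11.15, pandas 2.3.3 and scipy 1.17.1 were used.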

Additional observations from a re-analysis of the deposited data

Results flagged for a closer look

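As deposited, the difference between LA0722 and MoneyMaker had opposite directions in leaf and in ripe fruit for 2 TIP genes. The difference between tissues was not tested, since each value is 1 library. Solyc06g074820 had opposite directions too under upper-quartile scaling (-0.23 in leaf, 0.93 in ripe fruit) and median-ratio size factors (-0.69 and 0.93). Its ripe fruit values rest on 2 reads in LA0722 and 1 in MoneyMaker. For Solyc06g075650 the log2 difference was -0.93 in leaf and 1.80 in ripe fruit, -2.73 apart. As deposited, its leaf fold (MoneyMaker over LA0722) was 2.02, with an interval that held 1 (0.901 to 4.96). Ripe fruit had 2 reads in LA0722 and 0 in MoneyMaker, so as deposited neither direction stood beyond counting error. The leaf fold was 2.39 under upper-quartile and 3.3 under median-ratio scaling, for which no interval was computed. For Solyc03g120470 the log2 difference was -1.16 in leaf and 0.56 in ripe fruit, -1.72 apart. It had 10 reads in LA0722 ripe fruit and 7 in MoneyMaker ripe fruit, whose ratio had an interval that held 1.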

How the results depend on the processing

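Of 432 values of member differences under other settings, 416 kept the same outcome, 5 lost a call, 11 gained one and 0 of the called ones changed sign. Most pairs of gene and comparison had no call to begin with, many on few or no reads, so the 416 says little by itself. None of the 3 scalings changed a call between 2 libraries. Scaling moved libraries by up to 1.33 log2 units (flower, median-ratio size factors). With a pseudocount of 1 RPKM, 1 member was lower in ripe than in breaker fruit (background 10.5%). With 20 RPKM, and with a minimum level of 100 RPKM, 0 were lower in stem than in leaf and 2 higher in root than in stem. Those backgrounds were 4.01% and 5.28% with 20 RPKM, and 12.3% and 12.9% with the minimum of 100 RPKM. Ripe fruit against leaf had 3 lower in MoneyMaker at 100 RPKM (background 19.5%). In LA0722 it had 3 lower with no minimum (12.1%) or 1 log2 unit (32.2%). A pseudocount of 1 RPKM gave 3 predominant genes. A rule of 1 log2 unit gave 1 lower in breaker than in mature green (background 26.6%) and 1 lower in ripe than in breaker (20.4%). It gave 2 lower in LA0722 than in MoneyMaker leaf (24.5%) and 3 lower in root than in stem (19.3%). It also gave 3 higher in stem than in leaf (46.0%), and 6 predominant genes. Upper-quartile scaling left 1 predominant gene, as did median-ratio size factors. For predominant genes the background was drawn up for the main rule only. The summed RPKM moved with upper-quartile scaling to 1323 in flower, 2432 in root, 2654 in stem and 1288 in leaf. Median-ratio size factors gave 83.11 in mature green, 1548 in flower, 2641 in root, 2759 in stem and 1547 in leaf, and equal sums gave 3584 in stem. Without Solyc03g120470, a choice made after seeing the data, it was 427.8 in LA0722 leaf, 2979 in root, 2094 in stem and 678.3 in leaf. Of 36 repeats of the search for similar genes, 13 gave both genes again, 15 gave 1 and 8 gave 0, so these names are not stable. No paired analysis was possible because each group holds 1 library. Depth limits the fruit values: members with 0 to 3 reads cannot be ordered.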
